A study of Mus musculus with 2 samples.

Results

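Regulators of the epithelial and mesenchymal state are described here through a list of 10 genes: the transcription factor genes Snai1, Snai2, Zeb1, Zeb2 and Twist1, which drive the epithelial-mesenchymal transition (EMT), and the epithelial regulators Esrp1, Esrp2, Grhl2, Ovol1 and Ovol2. Members were the rows of the deposited table that carry one of these symbols. The table of 14261 rows held 9 of the 10, namely all 5 EMT factors and 4 epithelial regulators, and Ovol1 was not analysed here. The values come from RNA-seq of 2 suspension cultures of mouse TRE-ESC embryonic stem (ES) cells, both labelled 36 h and both grown in N2B27 medium with LIF, a cytokine, and 2i, which blocks a pair of kinases, in low adsorption dishes. One culture had no agent and the other had doxycycline (dox), a drug that switches on tetracycline-controlled genes. The labels do not say which promoter drives the TRE construct, whether the line is 1 clone or whether feeder cells were present. With 1 library per group there is no spread between cultures and no test, so every difference below describes these 2 libraries only.

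EMT is the process in which cells joined in a sheet give up their junctions and take on a motile, fibroblast-like form. SNAI, ZEB and TWIST proteins bind E-box sequences and repress junction genes such as the E-cadherin gene Cdh1, and several of them also favour mesenchymal genes such as Vim. On the opposing side GRHL2 activates junction genes, OVOL proteins repress Zeb1 and other EMT genes, and ESRP1 and ESRP2 are RNA-binding proteins that set the epithelial pattern of splicing. Each side is known to repress the other, and ZEB proteins repress Esrp1 and Grhl2. Naive mouse ES cells carry E-cadherin, and leaving pluripotency at gastrulation involves an EMT.

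Jun, which encodes the AP-1 subunit c-Jun named in the series title, stood at 55 without dox and 3821 in the culture labelled dox. The deposited values are whole numbers on a scale with quartiles of 14, 62 and 184 in both libraries, and the sequencing depth behind them is unknown. Of 10 ES cell markers, all reached 50 in at least 1 library, 6 were at least 2-fold lower with dox and 0 were higher, beside 5.49% lower and 9.23% higher among all genes that reached 50, while Pou5f1, which encodes Oct4, stood at 3230 and 3572. None of 12 fibroblast markers reached 50, and their sum was 34 without dox and 83 with dox. The largest gains were in Col3a1 (2 and 39) and Col1a2 (8 and 19), while Postn (11 and 8) and Pdgfrb (6 and 2) had smaller values with dox. Of the 12, 4 (Lum, Dcn, Fap and Lox) were listed at 0 in both libraries. Trophectoderm markers, 9 of 10 in the table, summed to 350 and 958, and primitive endoderm markers, 7 of 10, to 529 and 1312. Most of these gains came from Krt7 (0 and 374), Tead4 (50 and 158) and Ets2 (76 and 215), and from Col4a1 (12 and 507) and Lamb1 (202 and 627). The trophectoderm factor genes Cdx2 (28 and 34), Eomes (32 and 18) and Gata3 (1 and 6) stayed below 50. So did Hand1 (0 and 17) and Ascl2 (4 and 23), while Tfap2c stood at 159 and 113. Among the primitive endoderm markers, Gata4 (4 and 7), Gata6 (4 and 8) and Pdgfra (4 and 8) also stayed below 50. Dab2 stood at 12 and 2, and Lama1 at 291 and 153. Of 8 blood and endothelial markers 6 were in the table, with sums of 285 and 445.

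The start regions of the regulators were searched for 3 known elements, because c-Jun is a DNA-binding protein and because SNAI and ZEB proteins bind their own E-boxes. RefSeq windows of 300 bases on GRCm38.p6 ran from 250 before to 50 after a transcription start. They were searched for 4 of the 10 genes, 7 windows in all, for Snai1, Twist1, Ovol2 and Zeb2. Snai2, Zeb1, Esrp1, Esrp2, Grhl2 and Ovol1 had no window. The letters searched on both strands were CAGGTG or CACCTG for the E-box of SNAI and ZEB proteins, TGANTCA for AP-1, and AACNNGTT for grainyhead proteins, of which AACCGGTT is a stricter form. These stood in 20.2%, 7.81%, 4.2% and 0.146% of all 32851 windows of the table. Both searched windows with a match are shown, with the matched letters in capitals.
Snai1, chr2:167537945-167538244, plus strand: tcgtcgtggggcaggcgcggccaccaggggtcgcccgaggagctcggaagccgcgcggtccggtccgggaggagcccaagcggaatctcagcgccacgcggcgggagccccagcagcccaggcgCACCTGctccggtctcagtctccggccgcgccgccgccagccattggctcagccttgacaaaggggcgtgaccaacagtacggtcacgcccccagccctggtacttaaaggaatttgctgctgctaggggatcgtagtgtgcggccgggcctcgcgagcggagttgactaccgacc
Zeb2, chr2:45110228-45110527, minus strand: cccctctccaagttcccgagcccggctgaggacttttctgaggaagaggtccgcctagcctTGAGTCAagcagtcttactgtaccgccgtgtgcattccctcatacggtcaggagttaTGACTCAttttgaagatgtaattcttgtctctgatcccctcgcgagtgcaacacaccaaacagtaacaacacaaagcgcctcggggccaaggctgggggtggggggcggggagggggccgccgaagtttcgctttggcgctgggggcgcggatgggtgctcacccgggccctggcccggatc
The Snai1 window held 1 E-box, CACCTG, which begins 126 bases before the start. The Zeb2 window, at the last of 4 annotated starts in the direction of transcription, held AP-1 letters at 189 and 132 bases before the start, TGAGTCA and TGACTCA. The other 3 Zeb2 windows and those of Twist1 and Ovol2 held none of the elements. Both sequences are places where the letters occur, and no binding was measured.

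The 5 EMT factors were low in both libraries and did not move in one direction. None of them reached a value of 50 in either library, the floor below which genes were not called. Their values summed to 86 without dox and 81 with dox. The 4 epithelial regulators were also mostly low, and each had a larger value with dox, for sums of 95 and 150. For comparison, 42.4% of all rows had a larger value with dox and 51.0% a smaller one, shares that are not matched for level. The larger values of the 4 regulators lay at 1 to 9, 10 to 19 or 100 to 249. Median log2 ratios of all genes at these levels, computed as described below, were 0.107, −0.103 and −0.088. Only Esrp2 reached 50, and it was within 2-fold, so 0 of the 9 members were called in either direction. The background at or above 50 was 8547 genes, of which 9.23% passed 2-fold on the higher side and 5.49% on the lower side. With no floor Zeb2 alone passed, on the higher side, where 8.8% of all rows did so and 5.58% passed on the lower side.

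**Figure D1:**
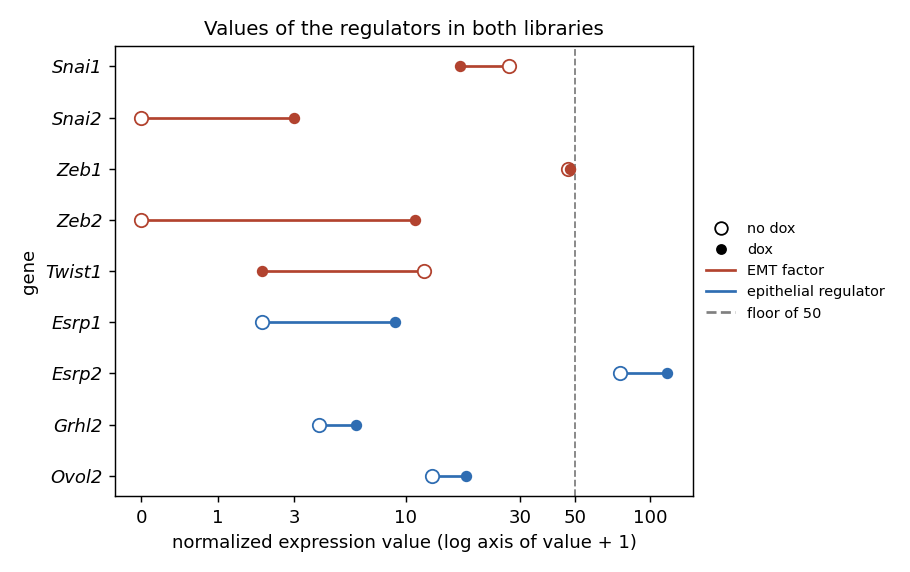
Normalized expression value of each of the 9 regulators (horizontal log axis of value + 1) without dox (open circles) and with dox (filled circles), 1 library each. EMT factors are red and epithelial regulators blue, and only Esrp2, at 76 and 117, lies to the right of the dashed line at 50.

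Snai1 and Snai2 encode the zinc finger repressors Snail and Slug. Snai1 stood at 27 without dox and 17 with dox. Its value was thus the smaller one in the dox library, with a log2 ratio of −0.45. This ratio, like every log2 ratio below unless stated, was taken over values raised by a pseudocount of 10, which shrinks the ratios of low values. Among the 2308 genes whose larger value lay between 20 and 49, 30.6% had a lower log2 ratio than Snai1, so its difference was inside the range common at this level. With the dependence of the log2 ratio on transcript length removed its ratio was −0.26. Snai1 lies on the plus strand of chromosome 2 from 167538195 to 167542814 (GRCm38, GENCODE M21) and has 3 exons.

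Snai2 was listed at 0 in the culture without dox and 3 in the other, so no fold is given. Of the 1452 genes whose larger value was 1 to 9, 438 (30.2%) had 0 without dox, and 133 (9.16%) had 0 with dox. Snai2 lies on chromosome 16 from 14705852 to 14709385. The paralogue Snai3 was listed at 0 and 12. Levels per kilobase, here and below, divide the deposited value by the length of the longest annotated transcript. They hold only if the values were not already scaled by length, which is unknown. On this scale Snai1 had a level of 16.7 without dox and 10.5 with dox, Snai2 0 and 1.48, and Snai3 0 and 7.37. Snai1 was therefore the only SNAI gene above 0 without dox and the highest of the 3 with dox, and the family summed to 16.7 and 19.3 per kilobase.

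Zeb1 and Zeb2 encode large zinc finger and homeodomain repressors. Zeb1, on chromosome 18, had the largest value of the EMT factors and was nearly equal in the libraries, at 47 and 48, with a log2 ratio of 0.03. It lay just under the floor of 50. With the length trend removed the ratio was −0.16. Zeb1 shares 198 exonic bases with Gm10125, a gene on the opposite strand that stood at 25 and 10. The labels name a TruSeq RNA kit and do not say that reads were counted by strand, so reads from such shared bases cannot be told apart.

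Zeb2 was listed at 0 in the culture without dox and 11 in the other, the largest gain in value among the EMT factors. Of 1325 genes whose larger value was 10 to 19, 141 (10.6%) had 0 without dox, and 38 (2.87%) had 0 with dox. Zeb2 (chromosome 2, minus strand) runs from 44983632 to 45117395, and 653 of its 19942 exonic bases are shared with the antisense gene Zeb2os, which was not analysed here. Per kilobase, Zeb2 had a level of 1.21 with dox, against 8.27 for Zeb1. Zeb2 is also known from macrophages, and markers of blood cells had larger values in the same library. The leukocyte gene Ptprc stood at 0 and 19, the macrophage receptor gene Csf1r at 1 and 111 and the lysosomal Cd68 at 19 and 96, while Pecam1 stood at 205 and 152, Tek at 52 and 64 and Kdr at 8 and 3. The part of such cells in the Zeb2 value was not tested.

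Twist1, a basic helix-loop-helix factor gene of mesoderm and neural crest, stood at 12 without dox and 2 with dox. It had the lowest log2 ratio of the members, −0.87. Among the 1325 genes with a larger value of 10 to 19, 7.47% had a lower ratio. The size rests on the pseudocount, since the log2 ratio was −2.12 with a pseudocount of 1 and −0.25 with 50. Twist1 has 2 exons on chromosome 12 from 33957671 to 33959829. The paralogue Twist2 was listed at 0 in both libraries.

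**Figure D2:**
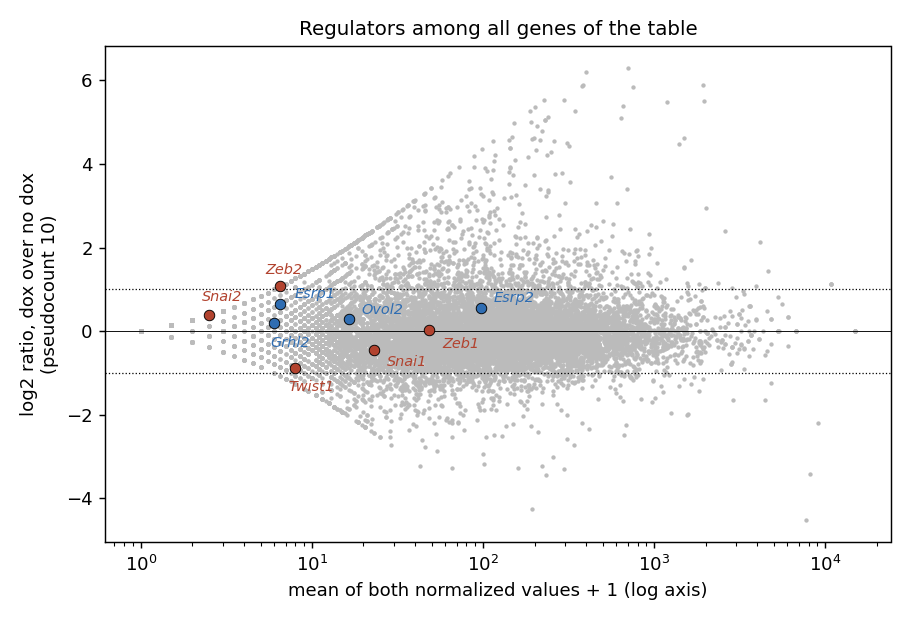
Log2 ratio of dox over no dox (vertical, pseudocount 10) against the mean of both normalized values + 1 (horizontal log axis) for all 14261 rows (grey), with EMT factors in red and epithelial regulators in blue. Dotted lines mark 2-fold, and the ratios of Zeb2 and Snai2, listed at 0 without dox, are set by the pseudocount.

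Esrp1 and Esrp2 encode the epithelial splicing regulatory proteins. Esrp2 had the largest values of the members, 76 without dox and 117 with dox. Its log2 ratio was 0.56, or 1.48-fold, and 17.1% of the 3178 genes whose larger value was 100 to 249 had a higher ratio. Over the alternatives tried the log2 ratio of Esrp2 lay between 0.41 and 0.64. Esrp2 (chromosome 8, minus strand) runs from 106130319 to 106136974. It shares 219 of its 4340 exonic bases with Nfatc3 on the opposite strand, which stood at 390 and 435. How many of the Esrp2 reads lie in those bases was not tested.

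Esrp1, on chromosome 4 from 11331933 to 11386783, stood at 2 without dox and 9 with dox. Its log2 ratio of 0.66 was the highest among members above 0 in both libraries, and 7.51% of the 1452 genes with a larger value of 1 to 9 had a higher one. It was 1.74 with a pseudocount of 1 and 0.18 with 50. Per kilobase, Esrp2 had 21.5 and 33.1 and Esrp1 0.52 and 2.33, so Esrp2 carried most of the ESRP level in both libraries.

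Grhl2, which encodes the grainyhead factor of simple epithelia, stood at 4 and 6, with a log2 ratio of 0.19, the smallest of the epithelial regulators. It lies on chromosome 15 from 37233036 to 37363569. Its paralogue Grhl1 was also below the floor, at 13 and 20, a log2 ratio of 0.38. Grhl3, known from the surface ectoderm and the epidermal barrier, stood at 41 and 176, a log2 ratio of 1.87. Per kilobase, the 3 GRHL genes summed to 19.3 without dox and 70.1 with dox, of which Grhl3 gave 14.7 and 63.1. Of the more distant relatives in the same family, the naive pluripotency factor gene Tfcp2l1 stood at 2672 and 1208, at least 2-fold lower, Tfcp2 at 47 and 31 and Ubp1 at 245 and 333.

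Ovol2, which encodes a zinc finger repressor of Zeb1 in epithelia, had the values 13 and 18, larger with dox, a log2 ratio of 0.28. In the bin of genes with a larger value of 10 to 19, 30.9% had a higher ratio. With the length trend removed the ratio was 0.50. Ovol2 (chromosome 2, minus strand) runs from 144305175 to 144332146 and shares 359 of its 2113 exonic bases with the antisense gene 1700108N11Rik, which was not analysed here.

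The median log2 ratio was 0.42 over the 4 epithelial regulators and 0.03 over the 5 EMT factors, beside −0.03 over all 14261 rows. Without Snai2 and Zeb2, at 0 in one library, the median of the EMT factors was −0.45 over 3 genes. The difference of the medians over all 9 members, epithelial minus EMT, was 0.40, and it was 0.13 with a pseudocount of 50 and 0.69 with the length trend removed. Per kilobase, the order of the members without dox was Esrp2, Snai1, Ovol2, Zeb1, Twist1, Grhl2 and Esrp1, with Snai2 and Zeb2 at 0. With dox it began with Esrp2 at 33.1, Ovol2 at 11.6, Snai1 at 10.5 and Zeb1 at 8.27, and the other 5 lay between 1.21 and 2.33. Ovol2 and Snai1 thus changed places, by a margin that has no replicate check. The sum per kilobase went from 32.1 to 22.7 for the EMT factors and from 31.2 to 48.3 for the epithelial regulators. The plain sums were 86 and 81, and 95 and 150. Whether the deposited values were already scaled by length is unknown, and the per-kilobase orders and sums rest on their not being so.

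Many genes that these regulators are known to control were higher with dox, though not all of them. Of 16 measured genes known as GRHL2 or OVOL targets, 13 reached the floor, and with dox 10 of these were higher by 2-fold or more and 0 lower, with a median log2 ratio of 1.53. Of 18 genes known to be repressed by SNAI or ZEB proteins, 14 reached it, of which 11 were higher and 0 lower (median 1.88). Of all genes at the floor, 9.23% were higher and 5.49% lower, and their median was −0.08. All gene lists here were chosen with earlier results of these data known, so their counts beside these shares are description only. The lists share 5 genes, and of their 29 different genes with a row, 18 were higher. The floor takes a gene on its larger value, and 12 of the 23 that reached it did so with dox only. Without a floor 19 of the 29 were higher and 2 lower, beside 8.8% and 5.58% of all rows. The median of the 29 was then 1.53.

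Among the targets of the repressors, the desmosome gene Dsp went from 108 in the library without dox to 2870. The keratin genes of simple epithelia Krt8 and Krt18 stood at 111 and 2672 and at 10 and 395. The desmosomal plakophilin gene Pkp3 stood at 6 and 387, and the apical trafficking motor gene Myo5b at 3 and 230. The P-cadherin gene Cdh3 stood at 52 and 196, and the polarity genes Patj and Crb3 at 29 and 172 and at 10 and 72. These were named because they passed 2-fold. The E-cadherin gene Cdh1, the best known target of SNAI and ZEB proteins, was within 2-fold, at 2876 and 4351, as were Llgl2 at 303 and 307 and Pard6b at 75 and 59. Below the floor, Tjp3 (31 and 10) and Muc1 (15 and 1), picked for their values, had smaller ones with dox.

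Among the GRHL2 or OVOL targets, the claudin genes Cldn4 and Cldn6 stood at 362 and 1175 and at 3 and 749. The membrane serine protease gene St14, which encodes matriptase, stood at 324 and 1271 and Prss8, the gene of its partner prostasin, at 15 and 62. The adhesion gene Epcam stood at 228 and 520, the cingulin gene Cgn at 6 and 113 and the tricellular junction gene Lsr at 34 and 106. Spint1 and Spint2, the genes of matriptase inhibitors, were within 2-fold at 568 and 463 and at 201 and 332. With a pseudocount of 50, 6 of the 13 were called in place of 10.

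Mesenchymal genes were also called on the higher side. Of 20, all in the table, 7 reached the floor. With dox 5 of these were higher by 2-fold or more and 0 lower, with a median log2 ratio of 1.59. Among all genes at the floor 9.23% were higher and 5.49% lower. The intermediate filament gene Vim stood at 499 and 1571, the matrix gene Sparc at 768 and 2219 and the fibronectin receptor gene Itga5 at 113 and 473. The N-cadherin gene Cdh2 stood at 30 and 110, and the membrane metalloproteinase gene Mmp14 at 32 and 129, so both reached the floor with dox only. The fibronectin gene Fn1 was within 2-fold, at 6785 and 5339. The other 13 genes, among them the fibroblast genes counted above, stayed under the floor, and without a floor the median over 20 genes was 0.45.

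**Figure D3:**
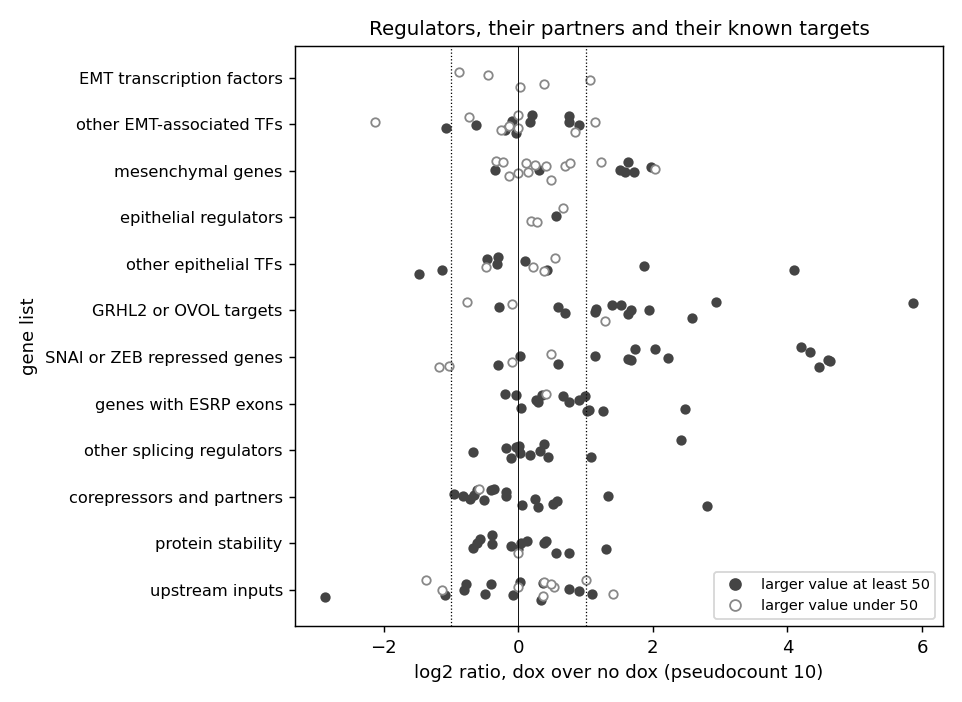
Log2 ratio of dox over no dox (pseudocount 10) for each gene in the table, by gene list, with filled points for genes whose larger value was at least 50 and open points for the rest, including genes listed at 0. Dotted lines mark 2-fold, and both lists of epithelial target genes reach far right of the regulators, whose ratios lie between −0.87 and 1.07.

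Other transcription factors of the epithelial state differed in both directions. Of 13 with a row, 9 reached the floor, of which 2 were higher, 2 lower and 5 within 2-fold. All genes at the floor had shares of 9.23% higher and 5.49% lower. The median log2 ratio of the 9 was −0.30, and it was 0.10 over all 13 without a floor. Grhl3, described above, was among the higher genes. Klf4, at 889 and 314, and Tfcp2l1 were lower, and both are also known as naive pluripotency factors. Elf3 stood at 411 and 333 and Klf5 at 237 and 255.

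Other EMT-associated factors mostly stayed within 2-fold. Of 18 with a row, 10 reached the floor, with a median of 0.07. With dox 0 were higher and 1 lower, beside 9.23% and 5.49% of all genes at the floor. The lower gene was Tead2, a DNA-binding partner of YAP, at 523 and 244, and this call was lost with a pseudocount of 50 or with the median of all genes set to 0. The E-protein genes Tcf3, at 464 and 455, and Tcf4, at 158 and 137, whose products pair with TWIST1, were near equal. Tcf12, another E-protein gene of the list, was larger with dox, at 236 and 404, a log2 ratio of 0.75. The organizer gene Gsc, below the floor and picked for its values, had 38 and 1.

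Splicing regulators that act beside or opposite to ESRP proteins were mostly level. All 13 in the table reached the floor, with a median of 0.02. Of these, 2 were higher and 11 within 2-fold, beside 9.23% higher among all genes at the floor. The higher genes were Mbnl2, a muscleblind gene, at 23 and 166, and the polypyrimidine tract binding gene Ptbp3, at 546 and 1161, which was not called with the length trend removed. Rbfox2, which opposes or assists ESRP proteins at many exons, stood at 369 and 507, and Ptbp1 at 1393 and 1363. Of 15 genes known to hold ESRP-dependent exons 14 reached the floor, of which 4 were higher and 0 lower (median 0.71), beside 9.23% higher among all genes at the floor. The surface receptor gene Cd44, which reached the floor with dox only, stood at 4 and 68, the cortactin gene Cttn at 512 and 1071 and Mprip at 383 and 788. Of the 14, 2 were called with a pseudocount of 50, and 2 with the length trend removed. The table gives 1 value per gene, so the isoforms that ESRP proteins set were not analysed here, and the receptor gene Fgfr2, whose exon choice is the classic ESRP readout, stood at 5 and 10.

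Corepressors and partners of SNAI, ZEB and TWIST proteins mostly stayed within 2-fold. Of 18, 17 reached the floor, 2 were higher, 0 lower and 15 within 2-fold, with a median of −0.19. The shares of all genes at the floor were 9.23% higher and 5.49% lower. The LIM-domain gene Limd1 stood at 47 and 133, a call lost with a pseudocount of 50. Loxl2, which encodes a lysyl oxidase known to stabilize Snail, was listed at 0 and 60. Both reached the floor with dox only. At 1.5-fold, 2 genes of this list were higher and 5 lower, beside 1425 higher and 1511 lower of all 8547 genes at the floor. Ctbp1 and Ctbp2, the corepressor genes of ZEB proteins, stood at 198 and 246 and at 360 and 231, and the demethylase gene Kdm1a, a partner of Snail, at 532 and 763. Of 14 genes at the floor for kinases, ligases and deubiquitinases that set the stability of SNAI and TWIST proteins, 1 was higher, the kinase gene Pak1 at 86 and 228, and 0 were lower, with a median of 0.02. Gsk3b, whose product marks Snail for degradation and is the target of 1 of the inhibitors in 2i, stood at 272 and 366.

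The list of genes upstream of EMT factors holds inputs known to raise them and also inhibitors such as Id3. It gave no common direction. Of 22, all in the table, 13 reached the floor, and 1 was higher, 2 lower and 10 within 2-fold. Beside these counts, 9.23% of all genes at the floor were higher and 5.49% lower. The median of the 13 was −0.08. This median was −0.25 after removal of the length trend and 0.18 without a floor. The TGF-beta receptor gene Tgfbr2 stood at 26 and 67, and was not called with a pseudocount of 50 or with the length trend removed. The inhibitor of basic helix-loop-helix factors Id3 stood at 100 and 5, and the Notch ligand gene Jag1 at 86 and 35, which was not called with a pseudocount of 50. The ligand genes Tgfb1, Tgfb2 and Tgfb3 stayed under the floor, at 8 and 16, at 0 and 3 and at 0 and 4.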

How the data were processed

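RNA from 2 cultures was made into libraries with a TruSeq RNA kit, per the labels' protocols. The tools bcl2fastq, Bowtie2 and RSEM and the build mm10 are named per the submitters' processing notes; versions, annotation, normalization and filter were not given in the sources used here. Because both libraries have equal quartiles and maxima, the deposited values were treated as a score that the authors had normalized and rounded, so no count model was used and depth is unknown. The log2 ratio used a pseudocount of 10, and genes were called at 2-fold where the larger value was at least 50 (8547 genes). Groups came from the agent label. Members and lists (17 lists, 227 genes) were chosen with earlier results of these data known. Named were all members, their paralogues, Jun, up to 6 called genes per list by value, or the 2 largest where none was called; further genes, named as examples among called genes, within 2-fold or below the floor, were picked with their values known, and some genes that the rule takes are not reported here. Transcript lengths came from GENCODE M21 on GRCm38, the assembly of mm10, for 99.1% of genes at the floor, and a lowess trend (fraction 0.3) was removed as an alternative. Other alternatives were pseudocounts of 1 and 50, floors of 0, 20 and 250, thresholds of 1.5-fold and 4-fold, and centring. Date-like symbols (21 rows) were not named, and no column of sample values was unused (0). The log2 ratio and the 2-fold call were tested on simulated data, with 4-fold changes in genes of higher mean value than the members. The other steps were not tested in this way. All steps were run in Python 3.11.15, numpy 2.4.6, pandas 2.3.3, statsmodels 0.14.6 and matplotlib 3.10.9.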

Additional observations from a re-analysis of the deposited data

How the results depend on the processing

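Of all genes, 789 were higher and 469 lower. These counts were 498 and 171 with a pseudocount of 50, 298 and 147 with a floor of 250, 1255 and 796 without any floor, 1425 and 1511 at 1.5-fold and 266 and 55 at 4-fold. With a floor of 20 they were 1082 and 723. With no floor 1 EMT factor was called higher, Zeb2, which was listed at 0 without dox. Under the other alternatives no member was called, but at the floor of 50 only Esrp2 could be called. At a floor of 20 only Snai1, Zeb1 and Esrp2 could be, and at 250 no member could. For the other members these alternatives do not tell whether a call is stable. The difference of medians, epithelial regulators minus EMT factors, of 0.40 was 0.13 with a pseudocount of 50, 0.69 with the length trend removed and 0.78 with a floor of 20, which left Snai1, Zeb1 and Esrp2. At floors of 50 and 250 no EMT factor remained, so it has no value there. The cause of these differences was not tested. Ratios of the members with values under 20 are set largely by the pseudocount. No paired analysis was possible because each group has 1 library, and no library could be left out for the same reason.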
